A study of Rattus norvegicus with 8 samples.

Results

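Transcript levels of Ccl2, Ccl7 and Ccl9, 3 of the CC chemokines that draw monocytes, were followed in primary rat chondrocytes. The cells received TNFα, alone or after U0126, an inhibitor of MEK1/2. All probe sets that the annotation of the Affymetrix RAT230_2.0 array gives to 1 of these genes alone were taken, which gave 3 probe sets, 1 per gene (1367973_at for Ccl2, 1379935_at for Ccl7 and 1392172_at for Ccl9), of 31042 probe sets for 14217 named genes. The 3 genes were chosen by their response to TNFα over DMSO in these arrays, so their values in that comparison are a description and carry no test.

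Chondrocytes came from the femoral condyles of 1-day-old Sprague Dawley rats, were grown in monolayer for 6 to 7 days and were kept in serum-free medium overnight. The 4 treatments were U0126 followed by TNFα, DMSO followed by TNFα (called TNFα), U0126 followed by the vehicle BSA (called U0126), and DMSO followed by BSA (called DMSO). U0126 was given at 10 μM for 30 minutes, and human recombinant TNFα at 30 ng/ml for 24 hours. Each treatment had 1 array per experiment, in 2 independent experiments (8 arrays), and every fold was taken between arrays of the same experiment.

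Chemokines are small secreted proteins that attract leukocytes along a concentration gradient by acting on G protein-coupled receptors. Ccl2 (monocyte chemoattractant protein 1) acts through Ccr2 and brings monocytes out of the blood into inflamed tissue, and Ccl7 (monocyte chemoattractant protein 3) acts on Ccr2 and also on Ccr1 and Ccr3. Ccl9 (in mouse also called macrophage inflammatory protein 1 gamma) is known from mouse as a ligand of Ccr1 that attracts myeloid cells. TNFα binds its receptors on the chondrocyte and activates the transcription factor NFκB and several kinase cascades, among them the one in which MEK1/2 phosphorylates ERK1/2. The comparisons asked how much of the response of each chemokine remained when MEK1/2 was inhibited.

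The sequences just upstream of Ccl7 and Ccl9 are shown because the NFκB and ERK pathways act through sites of this kind. They are the 250 bases before the RefSeq transcript start on build GRCr8, Ccl7 at chr10:67513845-67514094 on the + strand and Ccl9 at chr10:68868878-68869127 on the - strand, written 5′ to 3′ along the gene. Capitals mark matches to the AP-1 motif TGANTCA or the NFκB consensus, searched on both strands, and to TATAAA, searched along the gene. The promoter of Ccl2 was not analysed here.
Ccl7: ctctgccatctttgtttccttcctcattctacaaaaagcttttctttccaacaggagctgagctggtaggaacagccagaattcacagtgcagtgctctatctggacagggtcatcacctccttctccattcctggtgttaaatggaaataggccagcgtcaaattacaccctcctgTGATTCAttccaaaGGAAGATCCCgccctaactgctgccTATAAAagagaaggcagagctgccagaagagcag
Ccl9: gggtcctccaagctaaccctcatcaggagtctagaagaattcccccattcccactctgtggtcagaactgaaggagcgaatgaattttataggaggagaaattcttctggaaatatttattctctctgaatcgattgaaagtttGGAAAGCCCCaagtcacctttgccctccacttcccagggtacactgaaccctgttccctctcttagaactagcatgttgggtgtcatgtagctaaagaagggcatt

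In Ccl7 the capitals are an AP-1 match (TGATTCA, -73 to -67 from the start), an NFκB match on the opposite strand (-59 to -50) and a TATA box (-34 to -29), which lie close together and do not overlap. Ccl9 had 1 NFκB match before its start, at -106 to -97 on the opposite strand, and a second one after it, GGGGACTTCC at 14 to 23, with TATAAA at 39 to 44, counted from 0 at the start base. Neither promoter held the EGR motif GCGNGGGCG, searched on both strands, before the start. Over 33469 promoters of the same length, 6.33% held the NFκB motif, 6.34% the AP-1 motif, 4.29% the EGR motif and 8.06% TATAAA. A match of letters does not show that a factor binds there, and binding was not measured on these arrays.

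Ccl2 was at 8006 intensity units in experiment 1 and 14809 in experiment 2 with U0126 and TNFα, at 14036 and 17104 with TNFα, at 218.0 and 497.3 with U0126, and at 279.0 and 833.0 with DMSO. All 4 arrays with TNFα lay far above all 4 arrays without it. With TNFα, Ccl2 ranked 226 and 144 among the 31042 probe sets of its array (percentiles 99.28 and 99.54), against percentiles 42.3 and 69.77 with DMSO. An intensity is the probe set's brightness after each array was centred on its median, and intensities of different probe sets are not set against each other.

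Ccl7 was at 1464 and 3042 with U0126 and TNFα, at 3042 and 4496 with TNFα, at 222.6 and 544.3 with U0126, and at 276.8 and 625.6 with DMSO. The arrays with and without TNFα did not overlap for Ccl7 either. Taken across the experiments, U0126 and DMSO overlapped, and so, as for Ccl2, did U0126 with TNFα and TNFα. Within each experiment, Ccl7 was lower with U0126 in both of these pairs. With TNFα the probe set of Ccl7 reached percentiles 91.6 and 95.24 of the array, against 42.03 and 63.2 with DMSO.

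Ccl9 was at 147.9 and 224.8 with U0126 and TNFα, at 820.5 and 514.6 with TNFα, at 86.66 and 61.82 with U0126, and at 59.35 and 54.17 with DMSO. The order of the 4 treatments was the same in both experiments, TNFα highest, then U0126 with TNFα, then U0126, then DMSO, and no pair of treatments overlapped. The probe set lay near the bottom of the array with DMSO (percentiles 9.085 and 8.025) and in the upper part with TNFα (68.11 and 57.79). Without detection calls, the intensities without TNFα are not known to lie above background, which leaves its folds over them uncertain.

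**Figure D1:**
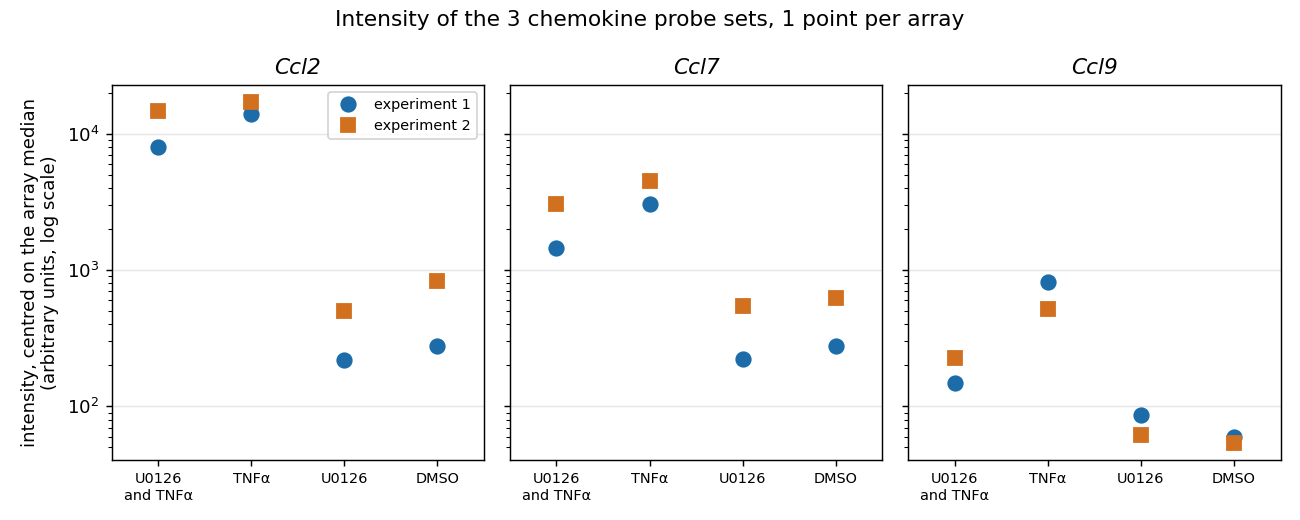
Intensity of Ccl2, Ccl7 and Ccl9 on each of the 8 arrays, centred on the array median, in arbitrary units on a log scale, by treatment, with circles for experiment 1 and squares for experiment 2. The TNFα arrays of Ccl9 sit at 820.5 and 514.6, above the U0126 and TNFα arrays at 147.9 and 224.8, while for Ccl2 the arrays with TNFα, with or without U0126, all sit between 8006 and 17104.

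TNFα over DMSO was the comparison that chose the genes. Ccl2 with TNFα stood at 50.3 times its DMSO level in experiment 1 and 20.5 times in experiment 2, and its mean log2 fold change of 5.01 ± 0.26 (SE, limma) ranked 1 of 31042 probe sets. The corresponding folds were 13.8 and 9.50 for Ccl9 (3.52 ± 0.27, rank 5) and 11.0 and 7.19 for Ccl7 (3.15 ± 0.16, rank 10). All 3 genes met the fold rule of the methods, which asks each experiment for a level at least 45% above the comparison's control (downward, the inverse of that ratio), and which 1.65% of all probe sets met upward. In cultured cells measured in bulk, more cells that express a gene and more RNA per cell cannot be told apart.

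The fold of Ccl2 differed most between the experiments. With TNFα its intensity in experiment 2 was 1.22 times that in experiment 1, against 2.99 times with DMSO. Accordingly, the fold in experiment 1 was 2.45 times that in experiment 2 for Ccl2, against 1.53 times for Ccl7 and 1.46 times for Ccl9.

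TNFα was next compared with its vehicle in the presence of U0126, on 4 arrays that did not enter the folds that chose the genes. The error in limma comes from all 8 arrays, so those that chose the genes enter it (the SE of Ccl2 was 0.15 to 0.20 when a TNFα or DMSO array was left out, against 0.26). With U0126 and TNFα, Ccl2 stood at 36.7 and 29.8 times its level with U0126, and again ranked 1 of 31042. In limma its log2 fold change was 5.05 ± 0.26 (SE, 95% confidence interval 4.43 to 5.67, adjusted p = 8.74e-04). Ccl7 stood at 6.58 and 5.59 times its U0126 level, a log2 fold change of 2.60 ± 0.16 (interval 2.22 to 2.98, adjusted p = 0.00167). Ccl9 stood at 1.71 and 3.64 times, and its log2 fold change of 1.32 ± 0.27 (interval 0.68 to 1.95) did not pass (limma adjusted p = 0.0878).

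Thus 2 of the 3 genes rose with TNFα over U0126 in limma, where 0.831% of all probe sets rose, and all 3 met the fold rule upward, which 0.905% of probe sets did. The calls of Ccl2 and Ccl7 rest on pairing the arrays by experiment, since without the replicate block their adjusted p was 0.208 and 0.746 at the same log2 fold change. Of the alternatives run, Ccl9 passed only when the U0126 and TNFα array of experiment 1 was left out (1.83, limma adjusted p = 0.0471).

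U0126 itself was compared with DMSO. Ccl2 stood at 0.782 and 0.597 times its DMSO level with U0126 and Ccl7 at 0.804 and 0.870 times, while Ccl9 stood at 1.46 and 1.14 times. None of the 3 differences passed in limma. The log2 fold change was -0.55 for Ccl2 (interval -1.17 to 0.07, adjusted p = 0.411), -0.26 for Ccl7 (-0.64 to 0.12, adjusted p = 0.506) and 0.37 for Ccl9 (-0.27 to 1.01, adjusted p = 0.565). By limma 0.058% of all probe sets passed in either direction, and 0.11% met the fold rule downward, none of the 3 chemokines among them. The interval of each gene reaches beyond the fold rule on 1 side, so the missing calls do not show equal levels. The DMSO arrays of this comparison are also those that chose the genes.

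U0126 with TNFα was then compared with TNFα, as the effect of the inhibitor in stimulated cells. Ccl9 with U0126 and TNFα was at 18.0% and 43.7% of its level with TNFα, Ccl7 at 48.1% and 67.7%, and Ccl2 at 57.0% and 86.6%. Ranked from the lowest fold, Ccl9 was 3 of 31042, Ccl7 129 and Ccl2 420. Ccl9 and Ccl7 met the fold rule downward, as did 0.506% of all probe sets, and Ccl2 missed it in experiment 2.

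None of these 3 differences passed in limma over all probe sets, where 0.126% were lower. The log2 fold change was -1.83 ± 0.27 for Ccl9 (SE, interval -2.47 to -1.20, adjusted p = 0.0655), -0.81 ± 0.16 for Ccl7 (-1.19 to -0.43, adjusted p = 0.111) and -0.51 ± 0.26 for Ccl2 (-1.13 to 0.11, adjusted p = 0.480). When 1 array was left out, the log2 fold change ran from -2.35 to -1.32 for Ccl9, from -1.11 to -0.50 for Ccl7 and from -0.98 to -0.04 for Ccl2. The TNFα arrays of this comparison are also those that chose the genes.

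**Figure D2:**
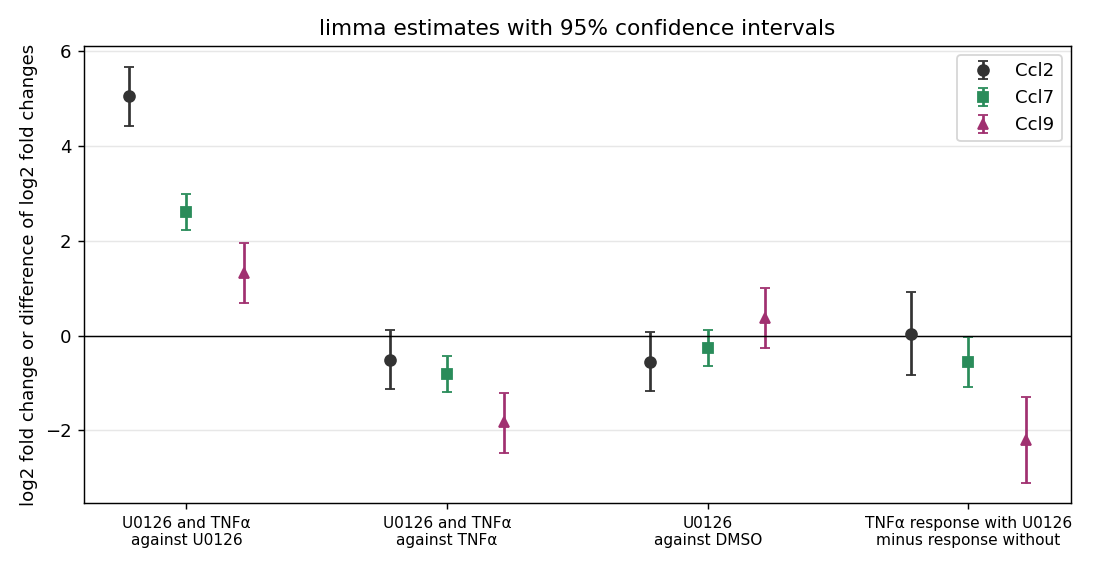
limma log2 fold changes of Ccl2, Ccl7 and Ccl9 in 3 comparisons and, at the right, the difference between the log2 response to TNFα with U0126 and without it, each with its 95% confidence interval. The interval of Ccl9 for that difference runs from -3.10 to -1.30, and that of Ccl2 from -0.83 to 0.91.

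The response that remained under U0126 was then expressed as the log2 response with U0126 over the log2 response without it. Ccl2 kept 92.0% of its log2 response in experiment 1 and 112.3% in experiment 2. Ccl7 kept 78.6% and 87.3%, and Ccl9 kept 20.3% and 57.3%. In fold terms the response of Ccl9 with U0126 was 0.123 and 0.383 times the response without it, against 0.599 and 0.778 times for Ccl7 and 0.730 and 1.5 times for Ccl2. Both experiments showed a smaller response with U0126 for Ccl9 and Ccl7, whereas the experiments went opposite ways for Ccl2.

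The difference between the log2 responses was -2.20 for Ccl9 (interval -3.10 to -1.30, limma adjusted p = 0.499), -0.55 for Ccl7 (-1.09 to -0.02, adjusted p = 0.538) and 0.04 for Ccl2 (-0.83 to 0.91, adjusted p = 0.980). This difference contains the comparison that chose the genes, so its estimates, intervals and p are not independent of that choice. In limma 0% of all probe sets passed this test, and 2833 had an unadjusted p under 0.05. Of the 513 probe sets that met the fold rule upward for TNFα, which were selected on the same comparison, 448 responded less with U0126 in both experiments, and their median share of the log2 response kept was 63.9%. Ccl2 and Ccl7 lay above that median, with 100.8% and 82.5% of the mean log2 response kept, and Ccl9 below it with 37.4%.

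Ccl2, Ccl7 and Ccl9 were 3 of 16 measured CC chemokines, and 13 others had a probe set of their own. Of these 13, 2 rose with TNFα over DMSO in limma (3.41% of all probe sets did) and 3 met the fold rule, with a median log2 fold change of -0.01 against -0.02 over all probe sets. Ccl20, which attracts cells that carry Ccr6, was at 20.3 and 8.15 times its DMSO level with TNFα (log2 3.69, limma adjusted p = 0.0019) and at 7.77 and 10.2 times its U0126 level with U0126 and TNFα (3.16, limma adjusted p = 0.0065). Ccl5, which attracts T cells and monocytes, was at 3.45 and 5.25 times its DMSO level (2.09, limma adjusted p = 0.0025).

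With U0126 the response of Ccl5 was smaller, like that of Ccl9. It stood at 1.29 and 1.80 times its U0126 level with U0126 and TNFα, which did not pass (0.60, limma adjusted p = 0.233). Its level fell to 0.373 and 0.279 times the TNFα level with U0126 and TNFα (-1.63, limma adjusted p = 0.0381), and it was the CC chemokine that passed in that comparison. Ccl19, a ligand of Ccr7, met the fold rule for TNFα at 2.23 and 3.63 times its DMSO level and did not pass (limma adjusted p = 0.0502). Over U0126, 1 of the 13 others rose (Ccl20, against 0.831% of all probe sets), and for U0126 against DMSO none passed (0.058%).

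Among the chemokines of all classes, 31 were measured and 13 met the fold rule for TNFα (1.65% of all probe sets), 10 of them also over U0126 (0.905%). The 10 besides Ccl2, Ccl7 and Ccl9 kept 28.9% to 148.0% of their mean log2 response with U0126, with a median of 80.7%, and 7 of them responded less with U0126 in both experiments. On the mean of the experiments, the share kept was lowest for Ccl5 at 28.9%, followed by the neutrophil attractant Cxcl3 at 34.7%, and highest for Cxcl10, a ligand of Cxcr3, at 148.0%. Ccl9 at 37.4% came next after Cxcl3 from the low end, Ccl7 at 82.5% was near the median, and only Cxcl10 kept more than Ccl2. The B cell attractant Cxcl13 (74.0%), the neutrophil attractant Cxcl1 (85.1%), Cxcl11 (86.3%), Cxcl16 (76.3%), Ccl19 (51.9%), Ccl20 (85.6%) and the membrane-bound Cx3cl1 (95.2%) made up the rest. The order differed between the experiments. In experiment 1 Ccl19 was lowest at 7.79%, against 79.5% in experiment 2, with Ccl9 and Ccl5 next at 20.3% and 20.4%. These shares are descriptions, since all 13 genes were selected on the response in the denominator.

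**Figure D3:**
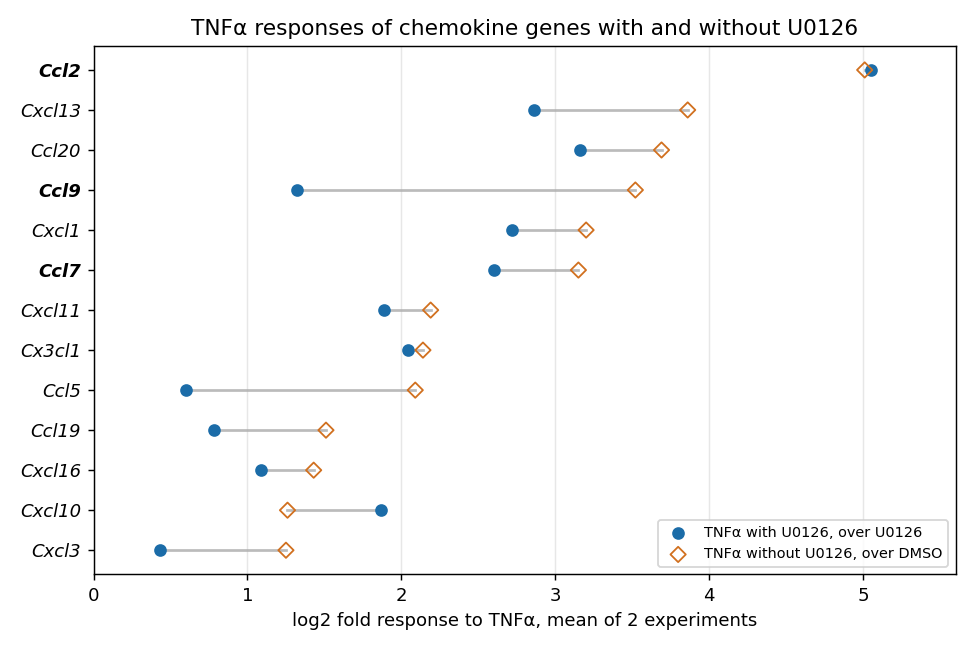
Mean log2 fold response to TNFα over 2 experiments for the 13 chemokine genes that met the fold rule for TNFα, with U0126 (filled circles, over U0126) and without it (open diamonds, over DMSO). The circle and diamond of Ccl2 lie at 5.05 and 5.01, those of Ccl7 at 2.60 and 3.15, and those of Ccl9 at 1.32 and 3.52.

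In the rat gene order on chromosome 10, Ccl2 and Ccl7 are neighbours, followed by Ccl11, Ccl12 and Ccl1, whereas Ccl9 lies in a second group between Ccl5 and Ccl6, followed by Ccl3 and Ccl4. The gene next to Ccl7, the eosinophil attractant Ccl11, was at 1.08 and 0.889 times its DMSO level with TNFα. In the second group, Ccl5 and Ccl9 lie side by side and both were higher with TNFα, and the next gene, Ccl6, was at 0.975 and 1.15 times its DMSO level. Ccl3 stood at 0.853 and 0.981 times and Ccl4 at 1.04 and 0.965 times. Ccl12 and Ccl1 had no probe set of their own here.

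Of 6 measured receptors of CC chemokines, none passed in any comparison in limma and none met the fold rule, with a median log2 fold change of -0.23 for TNFα against DMSO. Ccr2, the receptor of Ccl2 and Ccl7, lay between 47.1 and 64.8 on all 8 arrays, and Ccr1 between 65.3 and 83.9, both in the lowest part of the array (mean percentiles 8.1 and 13.0). Of 5 atypical and scavenger receptors, which take up chemokines without G protein signals, 1 rose with TNFα over DMSO (3.41% of all probe sets) and over U0126 (0.831%). This was Ackr3, which binds Cxcl12 and Cxcl11, at 1.88 and 1.80 times its DMSO level with TNFα (log2 0.88, limma adjusted p = 0.0023) and 1.84 and 1.77 times its U0126 level with U0126 and TNFα (0.85, limma adjusted p = 0.0054). Of 4 macrophage growth factor and receptor genes, 2 rose with TNFα over DMSO (3.41% of all probe sets) and over U0126 (0.831%). Csf1 with TNFα was at 2.79 and 2.04 times its DMSO level (1.26, limma adjusted p = 0.0024), and Il34, the other ligand of the Csf1 receptor, at 4.90 and 3.63 times (2.08, limma adjusted p = 0.0013). Both also rose over U0126, by 1.26 and 1.12 on the log2 scale (limma adjusted p = 0.0054 and 0.0231). Csf2 (log2 -0.23 over DMSO) and the receptor Csf1r (-0.09) did not pass.

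NFκB is held in the cytoplasm by inhibitor proteins until TNFα releases it. Of 11 NFκB genes (subunits, inhibitors and the kinases of the inhibitors), 9 rose with TNFα over DMSO and 7 with U0126 and TNFα over U0126 in limma, against 3.41% and 0.831% of all probe sets, with median log2 fold changes of 1.05 and 0.64. Nfkbia, the inhibitor IκBα that NFκB itself induces, was at 7890 and 8214 with TNFα, against 1031 and 1328 with DMSO, and at 7009 and 7314 with U0126 and TNFα, against 981.2 and 1262 with U0126. Of 15 genes known to follow ERK activity, none passed with U0126 over DMSO in limma (0.058% of all probe sets did), and 4 met the fold rule downward (0.11%). Egr1, an immediate-early transcription factor, was at 1263 and 1660 with U0126, against 3571 and 4644 with DMSO (log2 -1.49, limma adjusted p = 0.0527). Egr2 stood at 0.530 and 0.557 times its DMSO level, Dusp6, a phosphatase that switches off ERK, at 0.583 and 0.639 times, and Etv5 at 0.323 and 0.465 times.

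Of 8 AP-1 subunits, 1 rose over DMSO (3.41% of all probe sets) and over U0126 (0.831%). This was Junb, by 1.31 on the log2 scale with TNFα over DMSO (limma adjusted p = 0.0154) and by 1.36 over U0126 (limma adjusted p = 0.029). Among 7 proteins that bind cytokine mRNAs and regulate their decay, 2 rose with TNFα over DMSO (3.41% of all probe sets), Zfp36 (1.23, limma adjusted p = 0.0129) and the nuclease Zc3h12a (0.99, limma adjusted p = 0.0282). None of the 7 passed over U0126. With U0126 and TNFα, Zfp36 stood at 2.22 and 1.62 times its U0126 level (0.92, limma adjusted p = 0.0658) and met the fold rule upward (0.905% of all probe sets). Zc3h12a stood at 1.76 and 1.26 times (0.57, limma adjusted p = 0.234). Of 5 proteases known in human to cut CCL2 or CCL7, 2 rose with TNFα over DMSO (3.41% of all probe sets) and the other 3 did not pass. Mmp3 was at 23.5 and 4.48 times its DMSO level with TNFα (3.36, limma adjusted p = 0.0377) and Mmp13 at 15.2 and 3.04 times (2.76, limma adjusted p = 0.0433). None of the 5 passed over U0126. With U0126 and TNFα, Mmp3 was at 22.35 and 4.06 times its U0126 level (3.25, limma adjusted p = 0.0837). Mmp13 was at 6.04 and 1.78 times (1.71, limma adjusted p = 0.275), and both met the fold rule upward (0.905% of all probe sets).

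The genes whose pattern was most like that of each chemokine were found from the 6 log2 folds over the DMSO array of the same experiment, as the root mean square difference over 14217 genes. Ccl7 had close partners, Nfkbia at 0.30 log2 units, the apoptosis inhibitor Birc3 at 0.35 and the NFκB inhibitor Tnfaip3 at 0.43. The nearest to Ccl9 were Clec14a, a membrane lectin of endothelial cells, at 0.60, Ccl7 at 0.63 and Birc3 at 0.68. Ccl2 had none as near. Its nearest were the guanylate-binding protein Gbp7 at 1.13, Cxcl13 at 1.14 and Ccl20 at 1.38, and it lay 1.68 from Ccl7 and 1.97 from Ccl9. The 6 folds share the 2 DMSO arrays and include the folds that chose the genes, so these distances are descriptions. They are not scaled to the size of the folds. Ccl2 ranked 1 of 31042 for TNFα over DMSO, so its distance from other genes in part restates the size of its fold.

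Ccl2 and Ccl7 also differed between the experiments. In experiment 2 Ccl7 was 2.08 times its level of experiment 1 with U0126 and TNFα, 1.48 times with TNFα, 2.45 times with U0126 and 2.26 times with DMSO. It was among 585 probe sets, or 1.88% of all, that were at least 45% higher in experiment 2 in all 4 treatments. Ccl2 was 1.85, 1.22, 2.28 and 2.99 times as high in the same order, and fell short with TNFα. Ccl9 went the other way with TNFα (0.627 times), U0126 (0.713 times) and DMSO (0.913 times), and was 1.52 times as high with U0126 and TNFα.

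Markers of cell types differed between the experiments as well. The summed intensity of 14 chondrocyte markers in experiment 2 was 0.655 to 0.688 times that in experiment 1 over the 4 treatments. Of these markers 7, among them aggrecan (Acan), were at least 45% higher in experiment 1 than in experiment 2 in all 4 treatments. Over the whole array, 374 of 31042 probe sets were. The sum of 18 macrophage and monocyte markers was 1.25 to 1.33 times as high in experiment 2, and that of 9 fibroblast and perichondrium markers 1.23 to 1.27 times. The largest shift of a sum was in 6 osteoblast and osteoclast markers, at 1.76 to 2.03 times. The sum of 9 skeletal muscle markers was at 1.29 to 1.56, of 8 endothelial markers at 1.09 to 1.21 and of 4 neutrophil markers at 0.941 to 1.06 times. A sum follows its brightest genes. Among the osteoblast and osteoclast markers this was Ctsk, at 1781 and 4116 with U0126 and TNFα and at 1700 and 4371 with DMSO. Of the macrophage markers 4 were at least 45% higher in experiment 2 in all 4 treatments, Adgre1, Lyz2, Fcer1g and Mpeg1, against 1.88% of all probe sets. The same held for the fibroblast and perichondrium markers Dpt and Tnmd, the endothelial marker Tek and for Ctsk, and for no other listed marker. Adgre1, the F4/80 antigen of macrophages, was at 37.1 and 143.5 with U0126 and TNFα, at 35.4 and 340.4 with TNFα, at 33.9 and 146.2 with U0126 and at 30.0 and 201.4 with DMSO. The pan-leukocyte marker Ptprc lay between 60.6 and 69.7 on all 8 arrays, and the sum of 8 T and B cell markers was 0.896 to 1.03 times as high in experiment 2. The ratio of 3′ to 5′ control probe sets, a sign of RNA integrity, was higher in experiment 2 in all 4 treatments for actin, GAPDH and hexokinase (hexokinase 4.48 to 8.74 in experiment 2, against 3.39 to 3.62 in experiment 1). The part of these cell types and of RNA integrity in the levels of Ccl2 and Ccl7 was not tested.

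The marker lists were also read against the treatments. The sum of the macrophage markers was 6036 and 7778 with TNFα, against 5566 and 7391 with DMSO, and 5312 and 6708 with U0126 and TNFα, against 5585 and 7003 with U0126. Of the 18 genes, 1 rose with TNFα over DMSO (Cd68, a lysosomal glycoprotein, log2 0.85, limma adjusted p = 0.0228), the median log2 fold change was -0.08, and none passed over U0126. Of the 14 chondrocyte markers, 8 fell with TNFα over DMSO, as did 1.78% of all probe sets in limma. Col2a1, the type II collagen gene that defines chondrocytes, lay between 24282 and 32104 on all 8 arrays, close to the highest value of an array (31196 to 34845), where a change may not show.

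**Figure D4:**
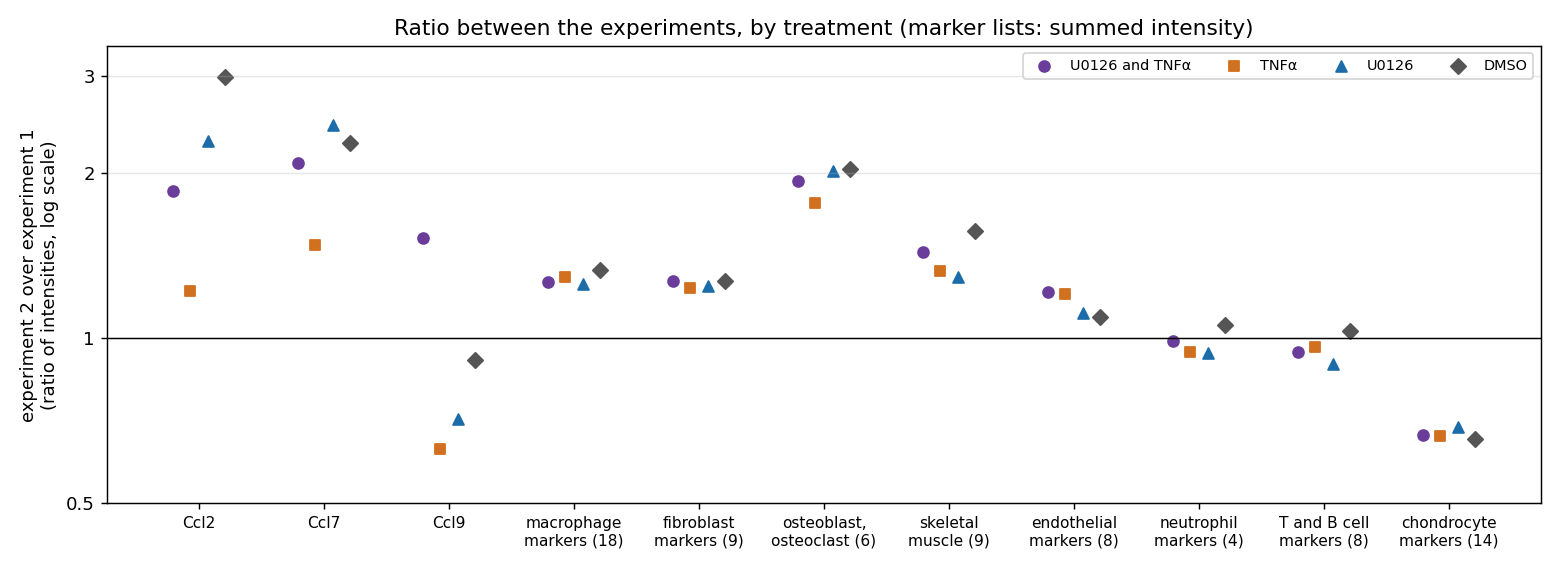
Ratio of intensity in experiment 2 to experiment 1 (log scale) in each treatment for Ccl2, Ccl7 and Ccl9 and for the summed intensity of 8 marker lists, with the number of genes in brackets. The chondrocyte sum lies at 0.655 to 0.688, the macrophage sum at 1.25 to 1.33 and the osteoblast and osteoclast sum at 1.76 to 2.03, while Ccl2 spans 1.22 to 2.99.

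Over the series, array medians of the deposited values lay between 365.1 and 378.2. The 3′ to 5′ ratio was 1.43 to 1.85 for actin and 1.13 to 1.33 for GAPDH. Ccl9, whose mean level lies at percentile 25.8 of the probe sets, was dropped by the filter on the lowest 40% tried as an alternative, and Ccl2 and Ccl7 were kept.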

How the data were processed

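RNA of 4 treatments in 2 independent experiments was hybridized to 8 single-colour arrays. Treatment and experiment were taken from the labels, which give a treatment and a replicate number. Arrays with the same number deviated together (their deviations from the treatment means correlated at 0.728 to 0.829), and the methods set each array against its own experiment, so the number was used as a block.

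The deposited values are linear summary intensities per probe set, which the authors deposited. The submitters' processing notes name RMA, in a version not given in the sources used here. The methods name GeneSpring GX 7.3, with values under 0.01 set to 0.01 and division by the 50th percentile. No value was under 0.01 and the division is not in the deposited values, so log2 values were taken and the median of the array was subtracted. Arrays have no count depth, and their number limits the precision. Every column per sample was used.

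Probe sets were named from platform annotation of 2016. Of 31099, 57 were controls and were not used. A single gene symbol stood beside 20826, several beside 436 and none beside 9780, and 0 named one of the 3 chemokines together with another gene. Where a gene had several probe sets, the brightest on average was used. Promoters of Ccl7 and Ccl9 and the gene order came from RefSeq tables on GRCr8.

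All 8 arrays entered 1 fit of limma 3.58.1 (R 4.3.3) with terms for treatment and experiment. In each of 5 comparisons p was adjusted over 31042 probe sets (Benjamini-Hochberg), with a threshold of 0.05. The fold rule asks for a fold of at least 1.45 in each experiment, in 1 direction, and has no p. limma was tested on simulated data that held no difference between the experiments, so that test does not cover the pairing by experiment. Replicates are separate cultures of separate experiments. Python 3.11.15 with numpy 2.4.6, pandas 2.3.3 and matplotlib 3.10.9 made the folds, lists and plots.

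The members and the 19 gene lists were chosen with earlier results of these data known. The rule for named genes takes the probe sets of the 3 chemokines, the 3 genes nearest each in pattern, the CC chemokines and the chemokines past the fold rule for TNFα, up to 4 members of each other list with the largest change, and the genes next to the chemokines. Ccr1, Lyz2, Fcer1g, Mpeg1, Ptprc, Acan, Col2a1, Dpt, Tnmd, Tek and Ctsk were named after their values were seen. Alternatives were no replicate block, uncentred values, quantile normalization, a filter on the lowest 40% of probe sets, a trend in the prior variance, leaving out each array, and fold thresholds of 1.3 and 2.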

Additional observations from a re-analysis of the deposited data

How the results depend on the processing

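Of 152 alternative values of Ccl2, Ccl7 and Ccl9 in comparisons with a test, 143 kept their direction and their side of the threshold. Many of these did not pass in either fit. Dropping the block, the trend and the filter cannot move a log2 fold change, nor can leaving out an array outside the comparison. For TNFα over DMSO, which has no test, leaving out 1 array gave 4.54 to 5.47 for Ccl2, 2.85 to 3.46 for Ccl7 and 3.18 to 3.85 for Ccl9. Without the replicate block, TNFα over U0126 no longer passed for Ccl2 (5.05, limma adjusted p = 0.208) or Ccl7 (2.60, limma adjusted p = 0.746), and the probe sets called numbered 25 for TNFα over DMSO (1611 with the block), 5 for U0126 and TNFα over U0126 (384), 0 for U0126 over DMSO (18) and 0 for U0126 and TNFα over TNFα (79). Where 1 array was left out, the lone array of its treatment was assumed to vary like the other treatments. The log2 fold change of TNFα over U0126 then ran from 4.91 to 5.18 for Ccl2, 2.42 to 2.78 for Ccl7 and 0.80 to 1.83 for Ccl9. Leaving out a DMSO or TNFα array cannot move this estimate and changes only its error. Over TNFα, U0126 and TNFα gave -1.11 to -0.50 for Ccl7 and -2.35 to -1.32 for Ccl9, each passing in 1 of 8. The difference of the responses of Ccl2 ran from -0.43 to 0.51. It changed sign without the DMSO array of experiment 2 (-0.35), the TNFα array of experiment 2 (-0.43), the U0126 array of experiment 1 (-0.10) or the U0126 and TNFα array of experiment 1 (-0.02). That of Ccl9 stayed between -2.72 and -1.68. The probe sets called then numbered 456 to 1538 for TNFα over DMSO, 20 to 579 for U0126 and TNFα over U0126, 0 to 12 for U0126 over DMSO, 0 to 416 for U0126 and TNFα over TNFα and 0 to 2 for the difference. A fold threshold of 2 left 188 probe sets for TNFα over DMSO, 99 over U0126, 19 for U0126 over DMSO and 32 for U0126 and TNFα over TNFα, against 1166, 784, 277 and 592 at a threshold of 1.3. The filter on the lowest 40% of probe sets gave no value for Ccl9. The cause of these changes was not tested. The number of arrays and the lack of detection calls limit what can be said of Ccl9 without TNFα.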
